A study of Mus musculus with 15 samples.

Results

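The 9 genes described here encode components, receptors and 1 regulator of the complement system: the C1q chains C1qa, C1qb and C1qc, the proteases C2 and Cfb, the central component C3, the receptors C3ar1 and C5ar1, and the regulator Cd55. They were chosen by symbol, and all 9 of the 9 listed symbols were rows of a table of 17271 genes. The table held RNA-seq values of 15 bulk mammary tumours from p53-NULL mice of the BALB/c strain, in 4 tumour models: 2151R with 4 samples, T11 with 1, 2225L with 2 and 2208L with 8. All samples shared the p53-NULL genotype and the strain, and no wild-type or tumour-free sample was used here. Ages, hosts and the number of animals are not given in the sources used here.

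By title, the samples of 2151R were 2 with codes that the labels do not explain (replicates 1 and 2) and 2 marked NT (replicates 3 and 4). The samples of 2225L were 1 marked T-Vivo (replicate 1) and 1 marked ROSEN (replicate 2). Those of 2208L were 1 marked ROSEN (replicate 1), 4 marked PBS (replicates 2 to 5) and 3 marked 3day nt (replicates 6 to 8). What these marks stand for beyond their letters is not stated in the labels. Nothing says that the samples came from separate animals, so the p-values measure only the spread between these samples, which may be technical.

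Each gene was centred by the authors on a level of its own, so a value gives how far, in log2 units, a sample lies above or below that level. Samples can be compared gene by gene, but 1 gene cannot be ranked against another. Models were compared with limma, and a gene is called different where its Benjamini-Hochberg adjusted p-value over all 17271 genes was under 0.05. Trp53, the gene named by the genotype, was called in no comparison, with adjusted p-values of 0.069 to 0.838. Its values ran from -0.29 to 0.29 in 14 samples, and replicate 1 of 2225L stood at 1.63. The centred scale does not show whether its RNA was absent, and which part of the gene was deleted is not given in the labels. Skeletal muscle genes were far above the rest in replicate 3 of 2151R and in replicates 6 and 8 of 2208L. Library numbers in the titles did not mix 2151R with 2208L, nor PBS with 3day nt samples, whose titles also begin with DH and KM in turn, so these groups cannot be told apart from their libraries' origin. Both 2225L and 2208L hold a library prefixed ROSEN beside others prefixed CP, and with this prefix as a covariate 7 of the 9 genes were called in each comparison with 2225L.

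Complement is a cascade of plasma and tissue proteins that marks cells and particles for removal. C1q recognises antibody and altered surfaces and, through C1r and C1s, leads to cleavage of C4 and C2, whereas factor B (Cfb) forms the convertase of the alternative pathway. Both convertases cleave C3, whose fragments C3a and, further down, C5a from C5 act on the receptors C3ar1 and C5ar1 of myeloid cells, while Cd55 (decay-accelerating factor) dismantles convertases on the body's own cells. In tumours C1q RNA is known mainly from macrophages, and C3 and factor B can also be made by tumour cells, fibroblasts and other stromal cells under inflammatory signals.

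In the RefSeq annotation of GRCm38.p6, the build also called mm10, the 3 C1q genes lie side by side on chromosome 4. C1qb is at chr4:136880126-136886200, C1qc at chr4:136889801-136892936 and C1qa at chr4:136895916-136898844. They are separated by 3600 and 2979 bases with no other protein-coding gene between them. Cfb at chr17:34856374-34862514 and C2 at chr17:34862602-34882100 are also neighbours, 87 bases apart. C3 is elsewhere on that chromosome, at chr17:57203967-57228136, C3ar1 is at chr6:122847140-122856157, C5ar1 at chr7:16246743-16259540 and Cd55 at chr1:130429798-130465009.

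Promoter sequences were found for 6 of the 9 genes, namely C1qb, C1qc, C3, C3ar1, C5ar1 and Cd55. The 250 bases before an annotated start are shown for C1qb and C1qc, a pair of neighbours whose values moved closely together, and for C3, whose values moved less with theirs. The stretches are chr4:136886201-136886450 for C1qb, chr4:136892915-136893164 for C1qc and chr17:57228137-57228386 for C3, all read on the minus strand, 5′ to 3′, from RefSeq. Capitals mark matches to the motifs searched.
C1qb: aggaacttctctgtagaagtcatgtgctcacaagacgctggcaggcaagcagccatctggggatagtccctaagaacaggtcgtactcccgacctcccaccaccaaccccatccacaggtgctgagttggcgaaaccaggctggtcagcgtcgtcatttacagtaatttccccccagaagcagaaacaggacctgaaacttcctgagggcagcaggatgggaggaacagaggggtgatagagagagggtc
C1qc: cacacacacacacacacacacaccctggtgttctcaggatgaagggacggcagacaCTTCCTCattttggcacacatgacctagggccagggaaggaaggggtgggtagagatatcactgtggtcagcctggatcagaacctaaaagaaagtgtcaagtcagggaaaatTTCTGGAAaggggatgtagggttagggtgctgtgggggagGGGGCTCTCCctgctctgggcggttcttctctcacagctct
C3: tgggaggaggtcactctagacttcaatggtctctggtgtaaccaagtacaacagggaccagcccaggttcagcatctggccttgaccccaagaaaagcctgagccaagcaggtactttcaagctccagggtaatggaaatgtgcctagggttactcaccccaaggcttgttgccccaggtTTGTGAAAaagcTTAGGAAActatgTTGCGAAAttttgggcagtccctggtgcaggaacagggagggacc
The motifs below were searched on both strands and no printed matches overlap. These were the PU.1 core GAGGAAG, the interferon-stimulated response element (GAAA, any 2 bases, GAAA), the C/EBP motif TTNNGNAA, the AP-1 motif TGANTCA and the NF-kB consensus. They occur in 10.6%, 2.98%, 36.8%, 6.75% and 3.90%, respectively, of 32851 promoter stretches of the same length. Counting back from the start, C3 held 3 C/EBP matches whose first bases were at -70, -58 and -45, and 2.61% of all stretches held at least 3. C1qc held a PU.1 core at -194 on the other strand, a C/EBP match at -81 and an NF-kB match at -41, and these letters were not found in C1qb or Cd55. The C3ar1 stretch held an AP-1 match at -22 and that of C5ar1 a C/EBP match at -157. A match describes the letters only, and no binding was measured.

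The 3 C1q chains, which together form the recognition molecule of the classical pathway, were lower in 2225L than in 2151R, and C1qb was also higher in 2151R than in 2208L. C1qa stood at 0.13, 0.28, 0.06 and -0.19 in replicates 1 to 4 of 2151R, at 0.44 in T11 and at -2.20 and -0.45 in replicates 1 and 2 of 2225L. In the 8 samples of 2208L it ran from -0.94 to 0.40 with a median of -0.14. The T11 sample was thus the highest sample and replicate 1 of 2225L the lowest by far, while 2151R and 2208L overlapped.

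C1qb stood at 0.54, 0.71, 0.45 and 0.088 in 2151R, at 0.91 in T11 and at -1.43 and -0.35 in 2225L. In 2208L its lowest, median and highest values were -0.76, -0.028 and 0.15. Replicates 1, 2 and 3 of 2151R lay above every sample of 2208L, and replicate 4 lay among them. C1qc stood at 0.22, 0.43, 0.19 and -0.18 in 2151R, at 0.70 in T11, at -2.15 and -0.77 in 2225L, and between -0.94 and 0.22 in 2208L with a median of -0.22. Its order of samples resembled that of C1qa: T11 was at the top and replicate 1 of 2225L at the bottom.

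**Figure D1:**
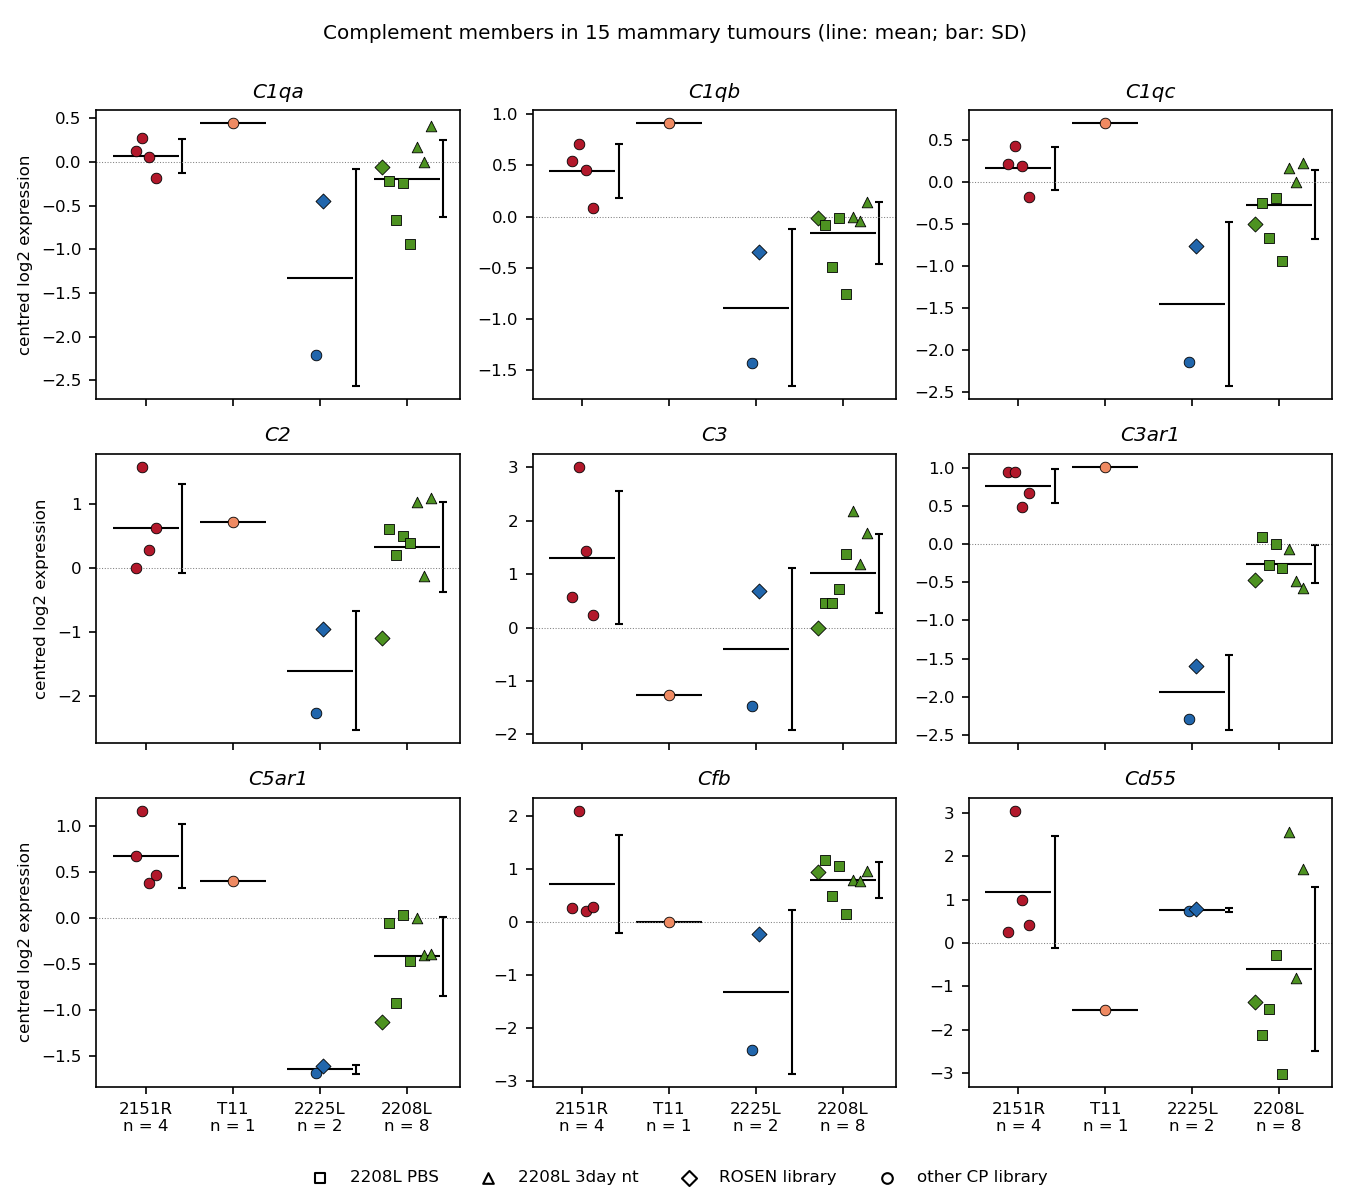
Centred log2 value of each of the 9 complement genes (vertical axes) in each of the 15 samples, grouped by model, with 1 point a sample, a line for the mean and a bar for the SD. C1qa, C1qb, C1qc and C3ar1 are highest in the T11 sample, whereas C3 and Cd55 stand at -1.26 and -1.54 there.

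Set against 2151R, the means of 2225L were lower by 1.40 ± 0.43 log2 units (SE) for C1qa (adjusted p = 0.0172), 1.34 ± 0.31 for C1qb (adjusted p = 0.00342) and 1.62 ± 0.39 for C1qc (adjusted p = 0.00374), by limma with 2 and 4 samples. The values of the groups did not overlap for any of the 3 chains, nor did those of 62.4% of all genes. Against 2208L, the difference of 2225L was -1.13 ± 0.39 for C1qa (adjusted p = 0.0418), -0.73 ± 0.29 for C1qb (adjusted p = 0.0658) and -1.19 ± 0.35 for C1qc (adjusted p = 0.0197), and the groups overlapped. Replicate 1 of 2225L carried much of this. Without it the differences from 2151R were -0.52, -0.80 and -0.93 and those of C1qa and C1qc from 2208L were -0.26 and -0.50, and none of the 5 was called, with the single sample left assumed to vary like the other groups.

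Between 2151R and 2208L, C1qb was higher in 2151R by 0.60 ± 0.22 (adjusted p = 0.0373), a 1.52-fold difference. The differences of C1qa and C1qc, 0.26 ± 0.31 (adjusted p = 0.502) and 0.43 ± 0.27 (adjusted p = 0.207), did not pass the test. The C1qb call was lost on leaving out any of replicates 1, 2 and 3 of 2151R or replicates 3 and 5 of 2208L, with differences of 0.52 to 0.60. The tumours were measured in bulk, so fewer cells of a type and less RNA per cell cannot be told apart for any gene here.

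C2, the protease of the classical convertase, was lower in 2225L than in both 2151R and 2208L. It stood at 0.00, 1.58, 0.28 and 0.62 in 2151R, at 0.73 in T11, at -2.25 and -0.94 in 2225L, and between -1.09 and 1.11 in 2208L with a median of 0.45. The lowest sample of 2208L was its replicate 1, which lay below replicate 2 of 2225L; the other 7 samples of 2208L lay above both. C2 of 2225L differed by -2.22 ± 0.59 from 2151R (adjusted p = 0.00714) and by -1.93 ± 0.54 from 2208L (adjusted p = 0.0142). Without replicate 1 of 2225L these became -1.57 and -1.28 and were not called.

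Cfb, the protease of the alternative convertase, showed the same pair of calls as C2. It stood at 0.27, 2.11, 0.22 and 0.30 in 2151R, at 0.00 in T11, at -2.41 and -0.22 in 2225L, and between 0.15 and 1.18 in 2208L with a median of 0.87. Both samples of 2225L lay below every other sample, although replicate 2 was close to T11. The difference of 2225L was -2.04 ± 0.59 from 2151R (adjusted p = 0.0116) and -2.11 ± 0.54 from 2208L (adjusted p = 0.00875), and without replicate 1 of 2225L these were -0.94 and -1.02 and were not called. Cfb differed between 2151R and 2208L by -0.076 ± 0.41 (adjusted p = 0.892), and by -0.54 without replicate 2 of 2151R, which alone stood above 2208L.

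C3, the protein on which all pathways converge, varied as much within models as between them. It stood at 0.57, 3.005, 1.44 and 0.23 in 2151R, at -1.26 in T11, at -1.47 and 0.68 in 2225L, and between 0.00 and 2.18 in 2208L with a median of 0.95. Replicate 2 of 2151R was the highest of the 15 samples and replicate 1 of 2225L the lowest, followed by T11. No comparison called C3: the difference was 0.29 ± 0.56 for 2151R against 2208L (adjusted p = 0.690), -1.42 ± 0.72 for 2225L against 2208L (adjusted p = 0.154) and -1.71 ± 0.79 for 2225L against 2151R (adjusted p = 0.0915). Without replicate 2 of 2225L the last of these was -2.78 and was called (adjusted p = 0.0360).

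The receptors C3ar1 and C5ar1 separated the 3 replicated models without overlap. Of all genes, 38.8% did not overlap in 2151R against 2208L, 31.7% in 2225L against 2208L and 62.4% in 2225L against 2151R. C3ar1, the receptor of C3a, stood at 0.95, 0.94, 0.48 and 0.67 in 2151R, at 1.01 in T11, at -2.29 and -1.59 in 2225L, and between -0.57 and 0.094 in 2208L with a median of -0.29. Every sample of 2151R lay above every sample of 2208L, and both samples of 2225L lay below all of these. C3ar1 was higher in 2151R than in 2208L by 1.02 ± 0.18 (adjusted p = 0.000354), a 2.03-fold difference. It was lower in 2225L by 1.68 ± 0.23 than in 2208L (adjusted p = 0.000122) and by 2.70 ± 0.25 than in 2151R (adjusted p = 1.78e-06).

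C5ar1, the receptor of C5a, stood at 0.67, 1.17, 0.39 and 0.47 in 2151R, at 0.40 in T11, at -1.68 and -1.61 in 2225L, and between -1.13 and 0.034 in 2208L with a median of -0.40. The replicated models again did not overlap, and T11 lay inside the range of 2151R. C5ar1 was higher in 2151R than in 2208L by 1.09 ± 0.23 (adjusted p = 0.00180), lower in 2225L than in 2208L by 1.23 ± 0.30 (adjusted p = 0.00735) and lower in 2225L than in 2151R by 2.32 ± 0.33 (adjusted p = 8.35e-05). Unlike the C1q chains, C2 and Cfb, both receptors stayed called against 2208L and against 2151R when either replicate of 2225L was left out. That leaves 1 sample of 2225L, assumed to vary like the other groups, and the adjusted p of C5ar1 against 2208L was then 0.0478 and 0.0418.

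Cd55, which protects cells from complement, spread widely within models and was called in none of the model comparisons. It stood at 0.26, 3.05, 0.98 and 0.42 in 2151R, at -1.54 in T11, at 0.73 and 0.79 in 2225L, and between -3.02 and 2.56 in 2208L with a median of -1.08. The range within 2208L alone was 5.57 log2 units, the widest of the 9 genes in that model. Its difference was 1.78 ± 0.93 for 2151R against 2208L (adjusted p = 0.130), 1.37 ± 1.20 for 2225L against 2208L (adjusted p = 0.413) and -0.41 ± 1.32 for 2225L against 2151R (adjusted p = 0.817). Cd55 of 2151R against 2208L was called without replicate 6 of 2208L, at 2.23 (adjusted p = 0.0314), and without the 3 samples high in skeletal muscle genes, at 2.76 (adjusted p = 0.00866). Leaving out those 3 samples also gave a call for 2225L against 2208L, at 2.28 (adjusted p = 0.0487). Mouse Cd55 has a close paralogue, and how reads were divided between the copies is not given in the sources used here.

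Counted together, 2151R against 2208L gave 3 of the 9 genes higher and 0 lower, where 48.8% of all genes were called (26.1% higher, 22.7% lower). In that comparison 2 of the 9 did not overlap, against 38.8% of all genes, and the median difference was 0.43 over the 9 and 0.10 over all genes. In 2225L against 2208L, 0 were higher and 6 lower (32.9% of all genes called, 15.6% higher and 17.3% lower), 3 did not overlap (31.7% of all genes), and the median difference was -1.23 against -0.044. In 2225L against 2151R, 0 were higher and 7 lower (48.6% of all genes called, 22.8% higher and 25.8% lower), the same 7 did not overlap (62.4% of all genes), and the median was -1.71 against -0.10. The comparisons share samples and are not independent of each other, and in 2225L against 2151R most genes of the table do not overlap.

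**Figure D2:**
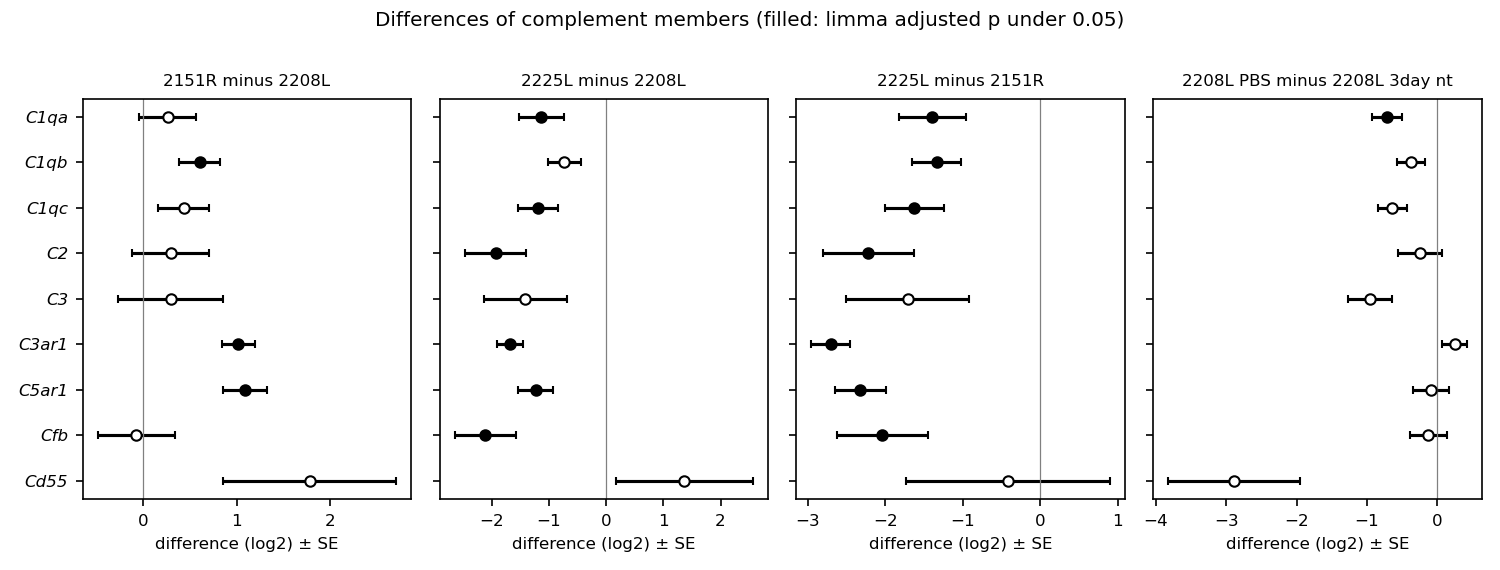
Difference between group means in log2 units (horizontal axis) of the 9 genes in the comparisons named above each panel, with bars for the standard error of the limma fit and filled points for genes called at an adjusted p under 0.05. C3ar1 and C5ar1 are called in all 3 comparisons between models, and C3 and Cd55 in none of the comparisons shown.

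T11 has a single sample, so its values carry no error and no test. It gave the highest value of all samples for C1qa, C1qb, C1qc and C3ar1, and lay below every sample of 2151R and 2208L for C3. Of 9 genes, T11 stood above the mean of 2151R for 5 (the C1q chains, C2 and C3ar1) and below it for the other 4. The models therefore ran in the order T11, 2151R, 2208L, 2225L for the first 5 genes, whereas for C3 the order was 2151R, 2208L, 2225L, T11 and for Cd55 it was 2151R, 2225L, 2208L, T11. Neighbours in these orders often overlapped: 2151R and 2208L did so for all genes but the 2 receptors.

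In log2 units, the C1q chains lay near the level of macrophage markers in every sample. So, somewhat less closely, did the receptors and C2, whereas C3 and Cd55, which vary more, departed from it in several. A score was taken for each sample as the mean, over 16 macrophage genes such as Csf1r, Cd68 and Adgre1, of the value minus the gene's mean over the 15 samples. It was 0.56, 0.71, 0.41 and 0.30 in 2151R, 0.94 in T11, -1.72 and -0.67 in 2225L, and -0.65 to 0.59 in 2208L with a median of 0.11. This is the order of the models found for the C1q chains, with T11 at the top and replicate 1 of 2225L at the bottom.

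Of the 16 macrophage genes, the model 2151R had 10 above and 1 below 2208L, where 26.1% and 22.7% of all genes were called in these directions, and the median difference was 0.71. In 2225L, 12 were lower than in 2151R (25.8% of all genes) and 8 lower than in 2208L (17.3% of all genes), with 0 higher in either and medians of -1.87 and -0.90. The macrophage gene lower in 2151R was Cd14, a receptor component also made by other cells, at -3.76 ± 0.29. The mean of the C1q chains minus the macrophage score, both centred, stayed between -0.30 and 0.52 in all 15 samples. The same difference ran from -2.95 in T11 to 1.54 in replicate 2 of 2151R for C3, and from -2.51 to 2.46 for Cd55. It ran from -0.80 to 0.52 for C3ar1, -0.71 to 0.69 for C5ar1, -0.73 to 0.83 for C2 and -1.38 to 1.05 for Cfb, and a mean of 3 chains can vary less than a single gene. This difference is not scaled to a gene's own spread. The SD over the 15 samples was 0.59 to 0.70 for the chains, 1.17 for C3 and 1.73 for Cd55. Over all 15 samples, Pearson's r with the score was 0.89 for C3ar1, 0.43 for C3 and 0.24 for Cd55. With model means subtracted these were 0.59, 0.65 and 0.60, so the grouping was not seen there.

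**Figure D3:**
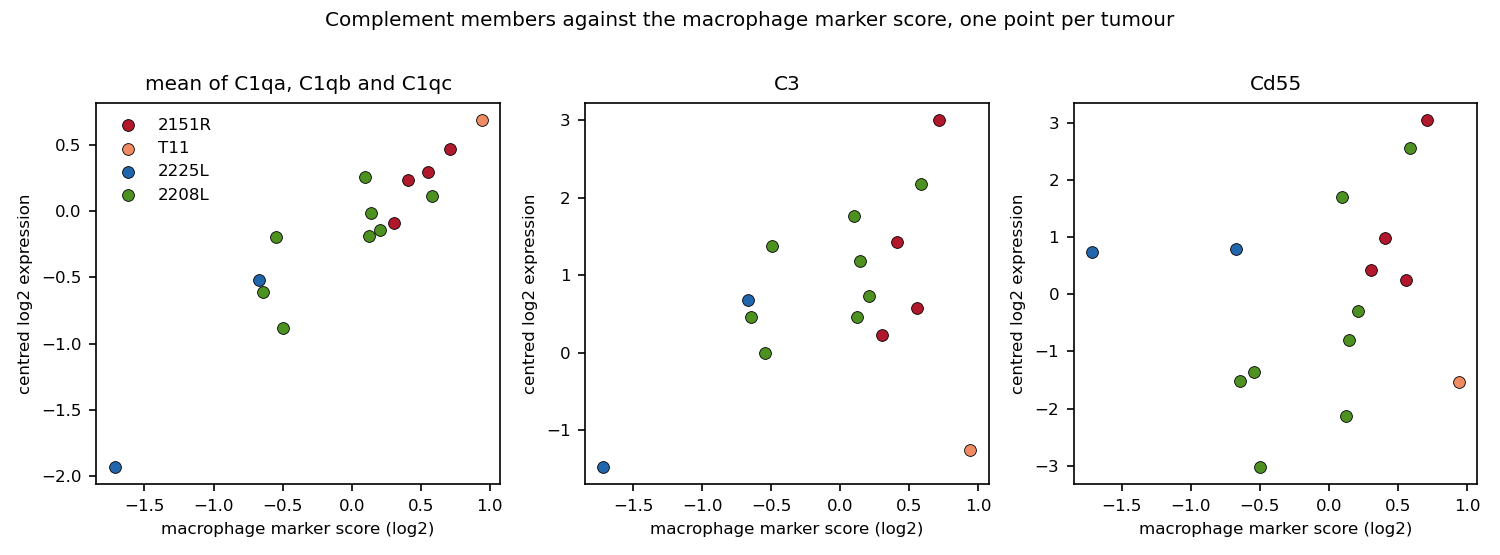
Centred log2 value of the C1q chains (mean of the 3), C3 and Cd55 (vertical axes) against the macrophage marker score of the same sample (horizontal axis), with 1 point for each of the 15 samples, marked by model. The C1q points rise with the score, while for C3 the T11 sample combines the highest score, 0.94, with a value of -1.26.

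Over 14 samples, with the mean of each model subtracted and T11 left out, Pearson's r with the macrophage score was 0.78 for C1qa, 0.77 for C1qb and 0.89 for C1qc. It was 0.65 for C2, 0.65 for C3, 0.59 for C3ar1, 0.74 for C5ar1, 0.62 for Cfb and 0.60 for Cd55. These are descriptions from 72 such values, and the points share libraries and the centring. Without both 2225L samples, which lie far apart, r was 0.68, 0.67 and 0.85 for the 3 chains and 0.54 for C3 (n = 12). For the other members it was 0.84 for C5ar1, 0.70 for Cd55, 0.57 for C2 and 0.43 for both C3ar1 and Cfb. Thus C5ar1 and Cd55 lay above C1qa and C1qb in those samples. The largest r of C2 was with a score of 10 fibroblast genes such as Col1a1 and Pdgfra (0.85), and the C1q chains reached 0.14 to 0.37 with that score. C5ar1 also had its largest r with the fibroblast score (0.78), not far above its 0.74 with the macrophage score. Without the 2225L samples these were 0.78 and 0.84, so the fibroblast score was then no longer the largest. C3 had its largest r, 0.84, with a score of 12 inducers and acute phase genes that included Il6, Saa3 and Cebpd. The largest r of Cfb was with that score too (0.71), and replicate 2 of 2151R was high in both. Within the 8 samples of 2208L, r of Cfb was 0.25 with that score and 0.53 with the macrophage score. For C3 it was 0.79 and 0.61 there.

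The C1q chains also went with the adipocyte score, at r of 0.77 to 0.85, and so did Cd55 (0.76) and C3 (0.66). Without the 2225L samples these adipocyte values were 0.78 for C1qa, 0.74 for C1qb and 0.86 for C1qc, each slightly above the value with the macrophage score. With the inducer and acute phase score the chains reached 0.63 to 0.78, so no cell source can be read from one score. Among the 36 pairs of members, r was 0.96 for C1qa with C1qb, 0.96 for C1qa with C1qc and 0.94 for C1qb with C1qc. It was 0.78 for C2 with C3, 0.58 for C1qa with C3, 0.59 for C3ar1 with C5ar1 and 0.02 for C3ar1 with Cd55.

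**Figure D4:**
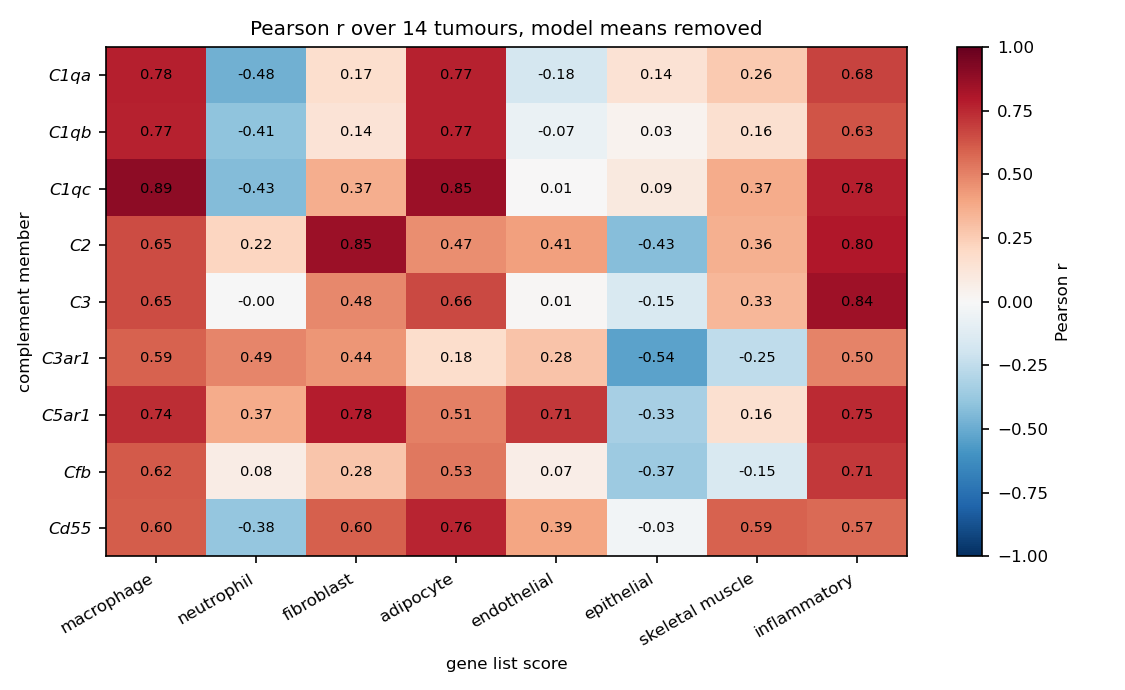
Pearson's r, with model means subtracted (14 samples), between each of the 9 complement genes and each marker score, shown by colour. The highest value for C1qc is 0.89 with the macrophage score, for C2 0.85 with the fibroblast score and for C3 0.84 with the score of inducers and acute phase genes, marked inflammatory.

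With the macrophage score as a covariate in the limma fit, C3ar1 was still called in the 3 comparisons between models, with differences of 0.81 for 2151R against 2208L, -1.26 for 2225L against 2208L and -2.06 for 2225L against 2151R (adjusted p = 0.00376, 0.00779 and 0.00180). C5ar1 was called in 2 of them, at 0.71 (adjusted p = 0.0150) for 2151R against 2208L and -1.19 (adjusted p = 0.0459) for 2225L against 2151R. The C1q chains were called in none: in 2225L against 2151R their differences became 0.22, -0.23 and 0.0046. The C2, C3 and Cfb differences of that comparison became -0.35, 0.85 and -0.27, and were not called either. With the fibroblast score as the covariate instead, the 3 chains were not called in that comparison either, at -1.14, -1.19 and -1.15. Nor were C1qa and C1qc in 2225L against 2208L, at -1.02 and -0.97. Since each of these scores differs between the models, such a covariate takes up part of the model difference by construction. The part of macrophage number in these results was not tested.

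Other scores also moved with the models. The score of inducers and acute phase genes was -0.69 to -0.038 in 2151R, -0.49 in T11, -0.96 and -0.16 in 2225L and -0.027 to 0.87 in 2208L. It was thus higher in 2208L than in 2151R, while C3 and Cfb were not called between these models. Over all 15 samples, Pearson's r of C3 with it was 0.54. The fibroblast score was 0.30 to 1.18 in 2151R, 1.10 in T11, -1.02 and -0.98 in 2225L and -1.54 to 0.68 in 2208L. The score of 10 epithelial genes such as Epcam and Krt8 was -3.60 to -2.56 in 2151R, -7.82 in T11, 3.17 and 3.16 in 2225L and 1.31 to 2.34 in 2208L. The score of 7 neutrophil genes such as S100a8 and Cxcr2 was -1.63 to -0.14 in 2151R, 0.050 in T11, -1.86 and -2.20 in 2225L and -0.46 to 2.55 in 2208L. In 2225L, 5 of the 7 neutrophil genes were lower than in 2208L and 0 higher (17.3% and 15.6% of all genes). Their median difference was -3.20, beside the lower C5ar1 and C3ar1. Against 2208L, 4 of the 7 were lower in 2151R and 0 higher (22.7% and 26.1% of all genes), while both receptors were higher there. The part of tumour epithelium, fibroblasts, neutrophils and inducers in these values was not tested.

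By likeness, the genes nearest to each member were searched among 14172 others, again as Pearson's r over 14 samples with model means subtracted. For C1qc they were Chrdl1 (0.974), the macrophage marker Ctss (0.973), which encodes a lysosomal protease, and Ncf4 (0.963), a subunit of the phagocyte oxidase. C1qa was nearest to Dok1 (0.969), Mapkapk2 (0.969) and Slc1a5 (0.964), and C1qb to Dmac2 (0.954), Hmox2 (0.942) and Slc1a5 (0.942). C2 was nearest to Loxl1 (0.968), which encodes an enzyme that cross-links elastin, Pdgfrl (0.963) and Nfasc (0.949).

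Nearest to C3 were Ly6a (0.940), which encodes the surface protein Sca-1, Dram1 (0.909) and the interferon-inducible Ifi205 (0.909). For Cfb they were Arhgef10l (0.924), Ptx3 (0.909), which encodes a soluble pattern recognition protein, and Hpcal1 (0.907). C3ar1 was nearest to Marchf1 (0.928), Rnf207 (0.927) and Fbxl5 (0.910), and C5ar1 to the matrix genes Svep1 (0.945) and Prelp (0.929) and to Cyyr1 (0.936). Cd55 was nearest to Pm20d1 (0.963), Igfbp6 (0.958) and Hoxc10 (0.949). With so many genes searched over 14 samples, values of this size are a ranking only.

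Of 40 other complement genes listed, 27 were in the table. In 2151R against 2208L, 10 were higher, 3 lower and 14 were not called, a share near the 48.8% of all genes called there. Their median difference was 1.05, against 0.10 over all genes. Among the genes listed as components, the lectin pathway genes Fcna (3.02 ± 0.80) and Masp1 (2.94 ± 0.44) were higher in 2151R, as was Colec12 (1.71 ± 0.23). So were C4a (2.20 ± 0.44), C1ra (1.36 ± 0.50), the protease that C1q activates, and Cfp (1.27 ± 0.44), properdin, which stabilises the alternative convertase. C4a has a near-identical copy, C4b, and how reads were split between them is not given in the sources used here.

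Among the receptors, Vsig4, a complement receptor of resident macrophages, was higher in 2151R by 4.76 ± 1.11. Cd93 (2.04 ± 0.39), Itgam (1.46 ± 0.29) and Itgb2 (1.02 ± 0.17) were also higher, the last 2 being the chains of complement receptor 3. Itgax, which pairs with Itgb2 in complement receptor 4, was lower by 2.30 ± 0.24. Of the regulators, Clu, clusterin, was lower by 4.05 ± 0.30, and Cd59a, which blocks the terminal pore and has the close copy Cd59b, was lower by 3.30 ± 0.33. The calls of C1ra and Cfp were each lost without replicate 2, 3 or 4 of 2151R, and that of C1ra also without replicate 3 or 7 of 2208L, with differences of 0.97 to 1.48 for C1ra and 1.11 to 1.34 for Cfp.

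In 2225L against 2208L, 1 of the 27 was higher, 5 lower and 21 were not called, a smaller share than the 32.9% of all genes, and the median difference was -0.17 against -0.044. C5ar2, the other C5a receptor, was lower by 3.84 ± 0.66, Itgax by 2.48 ± 0.31, Itgam by 2.24 ± 0.37 and Itgb2 by 1.14 ± 0.21. Colec12 was lower by 1.10 ± 0.30, and C8g was higher by 1.42 ± 0.37. Colec12 was not called without replicate 1 of 2225L (-0.66), nor was C8g without replicate 2 (0.87). In 2225L against 2151R, 4 were higher, 10 lower and 13 were not called, a share near the 48.6% of all genes, with a median difference of -1.38 against -0.10.

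**Figure D5:**
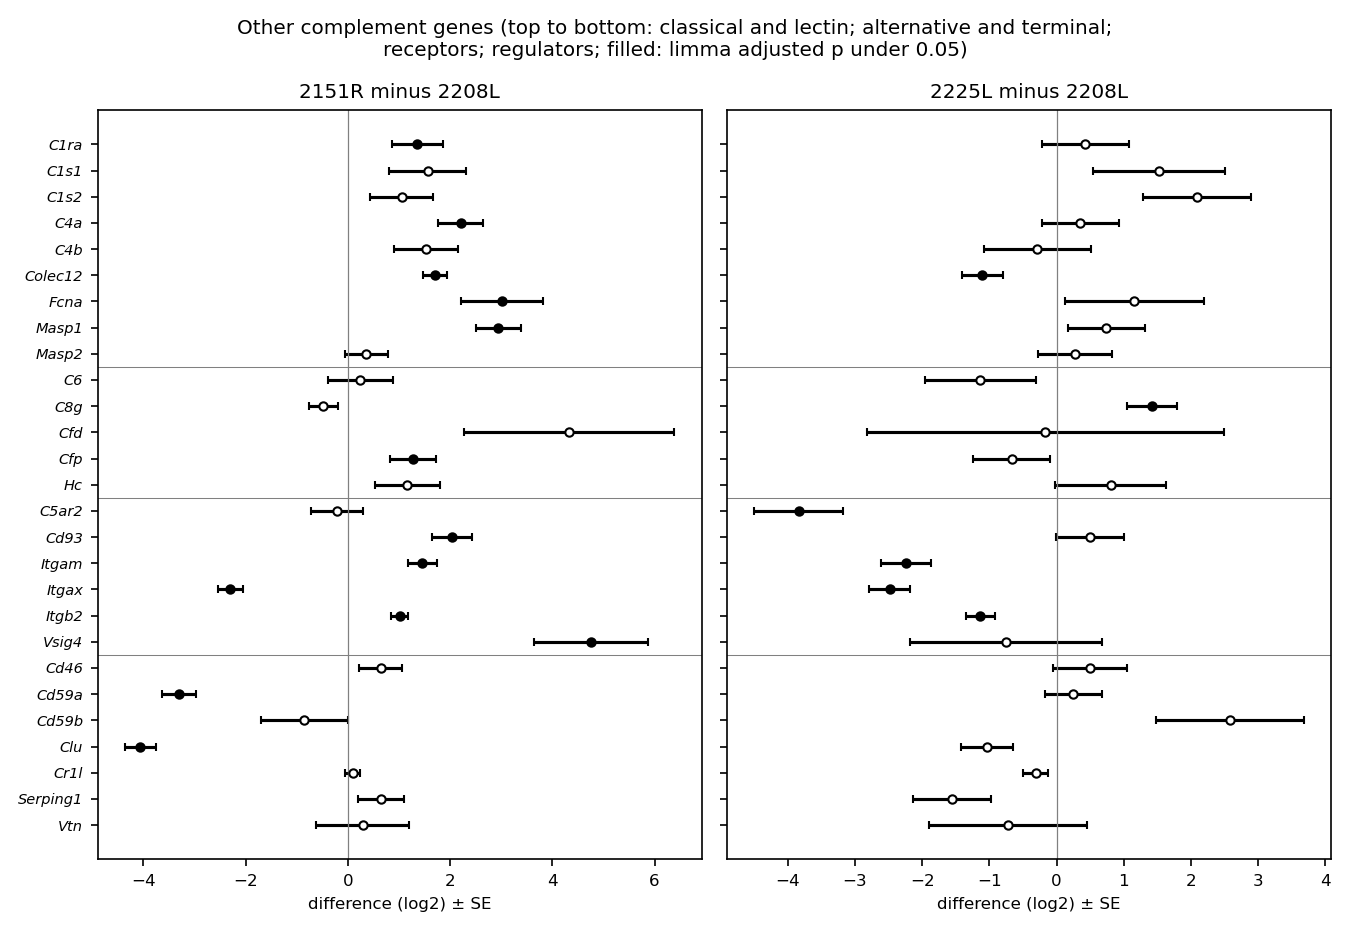
Difference in log2 units (horizontal axis) of the other 27 complement genes in the table for 2151R and for 2225L, each against 2208L, with bars for the standard error and filled points for those called at an adjusted p under 0.05. Vsig4 is the gene farthest to the right in 2151R against 2208L, at 4.76, and Clu the one farthest to the left, at -4.05.

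Within 2208L, the samples titled PBS were compared with those titled 3day nt in a fit of those 7 samples alone. C1qa was lower in PBS, at -0.22, -0.67, -0.24 and -0.94, than in 3day nt, at 0.17, 0.00 and 0.40, with a difference of -0.71 ± 0.22 (adjusted p = 0.0441). The groups did not overlap. It was the 1 call among the 9 genes, where 34.0% of all genes were called, 17.4% higher and 16.5% lower in PBS, and 2 of the 9 (C1qa and C1qc) did not overlap, against 44.8% of all genes. The C1qc difference was -0.64 ± 0.21 (adjusted p = 0.0522), that of C1qb -0.37 ± 0.20 (adjusted p = 0.191), and the median over the 9 was -0.37 against -0.047 over all genes.

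Cd55 had the largest difference of the 9 within 2208L, with -2.13, -1.52, -0.29 and -3.02 in PBS and 2.56, -0.80 and 1.70 in 3day nt. The 2 high values were those of the samples high in skeletal muscle genes, and the third 3day nt sample lay among the PBS samples. The difference was -2.89 ± 0.93 (adjusted p = 0.0524), and -0.94 without those samples (adjusted p = 0.638), which leaves 1 sample of 3day nt. C3 stood at 0.46, 0.46, 0.73 and 1.38 in PBS and at 2.18, 1.18 and 1.77 in 3day nt, with a difference of -0.95 ± 0.32 (adjusted p = 0.0562). The receptors C3ar1 and C5ar1 differed by 0.25 ± 0.18 (adjusted p = 0.301) and -0.088 ± 0.26 (adjusted p = 0.809).

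The C1qa call was lost on leaving out any 1 of the 7 samples except replicate 4 of 2208L, with values from -0.81 to -0.57, and without both samples high in skeletal muscle genes, at -0.52 (adjusted p = 0.455). That setting leaves 1 sample of 3day nt, assumed to vary like the 4 of PBS, and 98 of all genes were called in place of 5864. Of the 16 macrophage genes, 1 was higher and 5 were lower in PBS, and of 7 neutrophil genes 5 were higher and 0 lower. Over all genes, 17.4% were called higher and 16.5% lower in PBS. The neutrophil score was 0.79 to 2.55 in PBS and -0.46 to 0.95 in 3day nt, and its part in the result was not tested. Of the other 27 complement genes, 24 were not called, so a smaller share was called than the 34.0% of all genes. C5ar2 (1.78 ± 0.25) and Masp2 (0.93 ± 0.17) were higher and Cfp (-1.57 ± 0.30) was lower in PBS. With the lone 3day nt sample left by that setting these differences were 1.60, 0.78 and -1.26, and none was called.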

How the data were processed

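RNA was sequenced from 15 tumours. Libraries were prepared from poly(A) RNA with an Illumina kit, per the labels' protocols. STAR and Salmon are named as tools and mm10 as the build, per the submitters' processing notes, which do not give their roles. The authors deposited 1 table of log2 values centred for each gene, as its name states. The centring set, the offset before the logarithm and the normalization between samples are not given in the sources used here. Values ran from -14.55 to 13.11 over 17271 genes, and 727 genes, 0 of them among the 9, held an exact value more than once. The table holds no counts, so depth is unknown and the spread between samples alone gives the precision.

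Groups follow the model named in each title, and replicates were numbered in accession order. Differences were tested with lmFit and eBayes of limma (version 3.58.1, R 4.3.3), with no trend and no filter, adjusted by Benjamini-Hochberg over all genes with a threshold of 0.05. The comparisons between models used 1 fit of all 15 samples, and PBS against 3day nt a fit of 7. The fit was tested on simulated data with 200 changed genes. Marker scores are means over a list of values centred on each gene's mean. Motifs were searched in RefSeq promoter stretches of GRCm38.p6, matched by symbol.

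All 9 members are named, as are other complement genes called in 2151R or 2225L against 2208L. Those called in PBS against 3day nt were chosen after their values were seen. The 3 genes most like each member were taken from those without a repeated exact value and without a predicted-gene symbol. The members and lists were chosen with earlier results of these data known. Of the complement genes first listed, 1 is not reported here and was left out of the counts. Alternatives were median centring, quantile normalization, robust variance, sample weights, filters, covariates, subsets of samples and leaving out each sample.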

Additional observations from a re-analysis of the deposited data

Results flagged for a closer look

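Each group of 4 to 10 samples was searched for a highest or lowest sample far from the others relative to the range of its group. Over 99 such groups of genes and scores, 4 stood apart, and chance alone gives about 1 in 20, or 4.95.

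Cfb in replicate 2 of 2151R stood at 2.11, and the other 3 samples at 0.22 to 0.30. In the same sample the score of inducers and acute phase genes was -0.038, above the -0.69 to -0.62 of the other 3. Itgax in replicate 5 of 2208L stood at 1.27, below the 1.78 to 1.83 of the other PBS samples. For skeletal muscle, replicate 3 of 2151R scored 6.03, and the scores of the other 3 samples lay between -3.62 and -3.17.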

How the results depend on the processing

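No paired analysis was possible because the codes and numbers in the titles are not shared between the groups compared. The main limit is the number of samples: 2225L has 2, and its replicate 1 decides several calls. Signal over background cannot be read from centred values, so a low level cannot be told from an undetected one.

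The number of the 9 genes called in 2151R against 2208L was 3, and stayed between 2 and 4 under every alternative. In 2225L against 2208L it was 6, and 1 with sample weights, 1 with the macrophage score as covariate and 2 to 7 on leaving out 1 sample. In 2225L against 2151R it was 7, and 4 with sample weights, 2 with the macrophage score, 2 with the fibroblast score and 2 to 8 on leaving out 1 sample. Quantile normalization gave 4 in 2225L against 2208L, where C1qa (-0.77) and C1qc (-0.80) were no longer called. It gave 6 in 2225L against 2151R, where C1qa (-1.05) was no longer called. In both comparisons, the low end of the range on leaving out 1 sample came from replicate 1 of 2225L, which leaves 2225L with 1 sample. In PBS against 3day nt it was 1, and 3 with median centring, 3 with quantile normalization, 7 with sample weights, 4 without genes with a repeated value, 2 with the fibroblast score, 0 with the macrophage score, 0 without the samples high in skeletal muscle genes, 0 with a minimum difference of 1 log2 unit and 0 to 3 on leaving out 1 sample. The causes were not tested. The T11 values moved little with median centring or quantile normalization.

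Of all genes, sample weights called 2158 in 2225L against 2208L in place of 5687, and 5252 in 2225L against 2151R in place of 8398, where the fibroblast score left 5062. In PBS against 3day nt the count was 5864, and 11692 with sample weights, 2318 with the macrophage score, and 3886, 3848, 2950 and 2379 without replicate 2, 3, 6 or 8 of 2208L. Median centring takes out the median difference of all genes, 0.10 in 2151R against 2208L and -0.10 in 2225L against 2151R, and turned no member's direction.

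Of the differences that changed sign, C1qa and C1qc in 2225L against 2151R had been called, and none was called after the change. In 2151R against 2208L, C1qa became -0.27, C1qc -0.11, C2 -0.33 and C3 -0.56 with the macrophage score, C2 -0.66 and C3 -0.43 with the fibroblast score, and C2 -0.081 and C3 -0.33 in the samples titled NT, nt or PBS. Cfb became 0.12 without the samples high in skeletal muscle genes and 0.037 with the library prefix as covariate. In 2225L against 2208L, C1qb became 0.0058 and C3 0.29 with the macrophage score. In 2225L against 2151R that score gave C1qa 0.22, C1qc 0.0046, C3 0.85 and Cd55 3.54, the fibroblast score gave Cd55 2.38 and sample weights gave it 0.033. In PBS against 3day nt, C5ar1 became 0.014 with sample weights, 0.046 without the samples high in skeletal muscle genes, 0.36 with the macrophage score and 0.0017 with the fibroblast score, C2 became 0.55 without those samples, and Cfb 0.036 with quantile normalization and 0.23 with the macrophage score.

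On leaving out 1 sample, differences that changed sign ran from -0.029 to 0.50 for C2, -0.27 to 0.65 for C3 and -0.54 to 0.093 for Cfb in 2151R against 2208L, from -0.72 to 0.21 for Cd55 in 2225L against 2151R, and from -0.22 to 0.10 for C5ar1 and -0.28 to 0.067 for Cfb in PBS against 3day nt. Replicate 2 of 2151R turned C2, C3 and Cd55. The C1qa call in 2225L against 2208L was also lost without replicate 1, 2, 4, 6, 7 or 8 of 2208L. The library prefix and the NT, nt or PBS settings could not be fitted for PBS against 3day nt, whose samples share both.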
